A study of Mus musculus with 16 samples.

Results

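The cytosolic ribosome is built from a large and a small subunit, each an rRNA scaffold dressed with ribosomal proteins, and nearly every protein of the cell is made on it. The genes of these proteins are among the most strongly transcribed in most cells, and their mRNAs usually begin with a C followed by a run of pyrimidines, the 5′ terminal oligopyrimidine (TOP) motif, through which growth signals via mTORC1 and LARP1 set their translation and stability. Dividing retinal progenitors double their ribosomes with each division, whereas a rod photoreceptor is postmitotic and makes large amounts of rhodopsin and other outer segment proteins.

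Cytosolic ribosomal protein genes were taken by symbol (Rpl and Rps names with a number, and Rplp0, Rplp1, Rplp2 and Rpsa, without named pseudogenes and the S6 kinases). They had to reach a mean of at least 10 CPM (read counts scaled to the size of the library) over 16 libraries. Of 32166 genes in the table, 88 matched the names and 83 reached the level, 48 of the large and 35 of the small subunit. The members were thus selected on their mean level, which is no finding here. Just inside the threshold lay Rps3a3 with a mean of 10.9 CPM and Rpl27 with 14.3 CPM, and just outside lay Rps4l with 2.2 CPM and Rpl3l with 2.0 CPM. Rpl6l had a mean of 0.1 CPM, and Rpl10l and Rpl39l were listed at 0 in every library. All 83 members passed the filter for testing, and 3 of them (Rps12l1, Rps3a2 and Rps3a3) are processed pseudogenes in the GENCODE annotation.

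The libraries were polyA RNA-seq of cells sorted for GFP from retinal organoids, laminated retina-like tissue grown from mouse pluripotent stem cells. All organoids carried the Nrlp-GFP transgene, in which the promoter of the rod transcription factor Nrl drives GFP, so the sort takes cells with an active Nrl promoter. Organoids came either from embryonic stem cells (ESC), isolated from blastocysts of Nrlp-GFP mice, or from induced pluripotent stem cells (iPSC), made from embryonic fibroblasts of such mice with doxycycline-inducible lentiviral Oct3/4, Sox2, Klf4 and c-Myc. Both kinds of organoids went through low oxygen from day 0 to day 10 and later received taurine and retinoic acid. Day 18 had 5 libraries (3 ESC, 2 iPSC), day 21 had 4 (3 ESC, 1 iPSC), day 25 had 3 (1 ESC, 2 iPSC), and days 28 and 35 had 2 each (1 ESC, 1 iPSC). The labels do not say whether the libraries of a group came from separate cultures or clones, and every p-value below refers to the spread between libraries, which may be technical.

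Some libraries stood apart. Library totals rebuilt from the tables ran from 4696103 to 27006435, so 1 count was worth 0.037 to 0.213 CPM, far below the levels of nearly all members. At day 18, Nrl was at 17.7 CPM in ESC replicate 1 and at 15.99 CPM in iPSC replicate 1, whereas the remaining libraries of that day had 136 to 881 CPM. The proliferation gene Mki67 was at 406 and 462 CPM in this pair and at 66.4 to 172 CPM in the remaining day 18 libraries. The Y-linked gene Eif2s3y was at 36.0 CPM or more in every ESC library except ESC day 18 replicate 1 (0.70 CPM). It was at 1.44 CPM or less in the iPSC libraries except iPSC day 18 replicate 2 (72.0 CPM) and iPSC day 25 replicate 1 (14.6 CPM). The labels of ESC day 18 replicate 1 and iPSC day 18 replicate 2 may thus be exchanged, which was not tested; ESC and iPSC below are the sources as labelled, and values by source would change with such an exchange. ESC day 35 had the highest summed marker genes of Müller glia (816 CPM) and of bipolar cells (272.5 CPM) of all libraries. The next were at 247 CPM (ESC day 28) and 122 CPM (ESC day 18 replicate 2). Counts that rest on these libraries are given with and without them.

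The start of the mRNA is where the TOP motif lies, and the start sites of members are therefore shown first. RefSeq promoters (GRCm38.p6) were available for 60 of the 83 members, 1 start site each. Each line gives 15 bases before the annotated start and 15 from it on, 5′ to 3′ on the strand of the gene, with the longest run of C and T in capitals. The first 6 are members called lower at day 35 that have a run across the start. The next 2 are the member whose own value fell most and a member of the protein stalk that was not called, and the last is the paralog of Rpl7 that varied least.
Rps10 (chr17:27635230-27635259, minus strand): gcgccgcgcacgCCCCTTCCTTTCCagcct
Rps24 (chr14:24490663-24490692, plus strand): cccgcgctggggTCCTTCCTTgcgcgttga
Rpl7a (chr2:26910792-26910821, plus strand): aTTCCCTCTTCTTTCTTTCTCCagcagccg
Rps6 (chr4:86857353-86857382, minus strand): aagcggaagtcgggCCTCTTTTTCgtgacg
Rpl27a (chr7:109519180-109519209, plus strand): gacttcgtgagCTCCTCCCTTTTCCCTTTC
Rpl38 (chr11:114668565-114668594, plus strand): agcggaagcctcgTTCTTTCCCCgttctct
Rps3a1 (chr3:86142654-86142683, minus strand): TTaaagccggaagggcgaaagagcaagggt
Rplp2 (chr7:141447636-141447665, plus strand): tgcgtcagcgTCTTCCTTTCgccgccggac
Rpl7l1 (chr17:46782642-46782671, minus strand): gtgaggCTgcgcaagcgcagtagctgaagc
A run of at least 7 pyrimidines in a row lay in the 30-base window of 30 of 60 members, against 17.8% of 11147 tested genes and 18.5% of 27025 genes with a promoter. The run crossed the annotated start in 15 members (25.0%), against 4.7% of the tested genes. In the 300 bases around the start, CCGGAA on either strand, the core of sites for ETS factors, was found in 31 members (51.7%), against 25.7% of the tested genes, and TATAAA on either strand in 6 (10.0%), against 7.2%. The run was found in 15 of 31 members called lower at day 35 and in 15 of 29 members not called. The absence of a run in a window says only that these letters are not there.

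Summed over the 83 members, the level was highest on days 18 and 21 and lowest on day 35. At day 18 the sums were 21949, 17269 and 31402 CPM in the ESC libraries and 21399 and 17770 CPM in the iPSC libraries. At day 21 they were 25323, 25430 and 24420 CPM in ESC and 26250 CPM in iPSC. Both days overlap, and the mean was 21958 ± 5680 CPM (SD, n = 5) at day 18 and 25356 ± 749 CPM (SD, n = 4) at day 21.
Day 25 gave 15367 CPM in ESC and 18397 and 11921 CPM in iPSC, a mean of 15228 ± 3240 CPM (SD, n = 3). Day 28 gave 24344 CPM in ESC and 15485 CPM in iPSC. Day 35 gave 10268 CPM in ESC and 10351 CPM in iPSC, below each of the other 14 libraries. The CPM totals of the libraries differ. As a share of that total, the members were at 1.426% in ESC day 35 and 1.184% in iPSC day 35. Close to the former was iPSC day 25 replicate 2 with 1.432%. The descent was not even: the ESC library of day 28 lay above the ESC library of day 25, at the level of day 21. In bulk RNA of sorted cells, a smaller share of cells with many ribosomal protein mRNAs and fewer of these mRNAs per cell cannot be told apart.

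The mRNA levels of both subunits moved together. The ratio of the summed large subunit members to the summed small subunit members stayed between 1.22 and 1.45 in the 16 libraries. Across the 16 libraries, the median Pearson correlation of log2(CPM + 1) over 3403 pairs of members was 0.75, and 58.2% of pairs were above 0.7. These correlations share the scaling of each library to its total. Correlated above 0.8 with the median of the other members were 60 members, among them Rpl24 (0.96) and Rpl21 (0.95). Below 0.5 were 8. Of these, Rps12, Rps12l1, Rps3a2 and Rps3a3 have near-identical copies among the members, and for Rpl10a named pseudogenes held 48.5% of the summed CPM of both; the others were Rps27, Rpl5 and Rpl7l1.

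**Figure D1:**
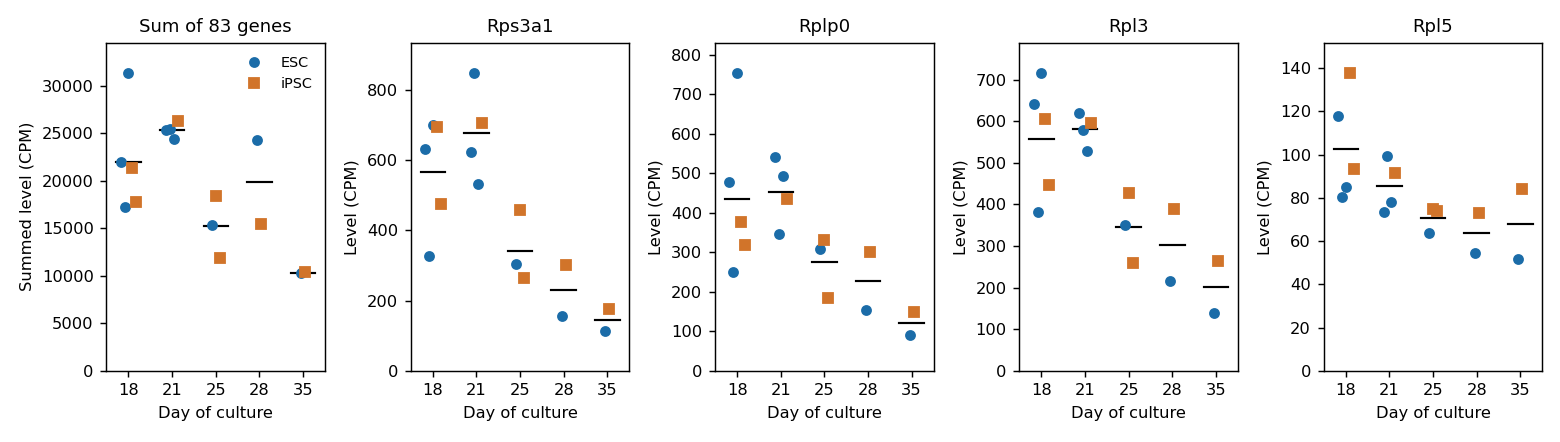
Level in CPM (y axis, linear, from 0) by day of culture (x axis, categories) for the sum of 83 ribosomal protein genes and for Rps3a1, Rplp0, Rpl3 and Rpl5; each point is 1 library (circles ESC, squares iPSC) and black lines are means of a day. The 2 libraries of day 35 are the lowest for the sum (10268 and 10351 CPM), whereas Rpl5 overlaps between days.

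Day 35, the last day, was compared with day 18, the first, by limma on log2(CPM + 1), fitted to all 16 libraries with terms for the source and for each day. Of the 83 members, 41 fell (24 of the large and 17 of the small subunit), none rose, and 42 did not pass an adjusted p of 0.05. Of all 15202 genes tested, 2.99% were called lower. The median difference of the members was -1.04 on the log2 scale, against 0.05 over all genes, and 79 of 83 members had a negative estimate. Both day 35 libraries lay below every day 18 library for 66 members (79.5%), against 10.1% of all tested genes.

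Rps3a1, a small subunit protein close to the mRNA exit, had the largest fall among the called members when each gene was taken alone. Its levels at day 18 were 632, 328 and 700.1 CPM in ESC and 695 and 474 CPM in iPSC, and at day 35 they were 115 CPM in ESC and 177 CPM in iPSC. The groups did not overlap, and the difference was -1.96 ± 0.34 (log2, SE; limma adjusted p = 0.0075). Rps3a1 also had the lowest adjusted p of the members, and its call held whichever of the 16 libraries was left out (adjusted p from 0.00369 to 0.0492). Summed with its copies Rps3a2 and Rps3a3, which held part of the signal in some libraries, the fall was -1.36 (limma adjusted p = 0.0255), smaller than those of Rplp0 (-1.79) and Rps7 (-1.64) in that fit. Its gene lies at chr3:86137940-86142702 (GRCm38, minus strand).

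Of the genes of the large subunit stalk, which recruits the GTPases of translation, only that of the base was called. The stalk genes were not compared with each other. Rplp0, its base, was at 479, 250.1 and 755 CPM in ESC and 378 and 319 CPM in iPSC at day 18, and at 91.7 and 149 CPM at day 35, again without overlap (-1.79 ± 0.41, log2, SE; limma adjusted p = 0.0236). Rplp1 and Rplp2, which form dimers on that base, were not called. Rplp1 ran from 78.4 to 317 CPM at day 18 and was at 59.9 and 104 CPM at day 35 (-0.54 ± 0.49, adjusted p = 0.53 in limma), and Rplp2 ran from 77.7 to 307 CPM and was at 43.5 and 85.4 CPM (-0.98 ± 0.45, adjusted p = 0.194 in limma). Both overlapped between the days, and for both the highest day 18 level was that of ESC day 18 replicate 3.

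Further genes of the large subunit fell without overlap. Rpl3, which reaches into the peptidyl transferase centre, was at 641, 381 and 717 CPM in ESC and 607 and 447 CPM in iPSC at day 18, and at 138 and 264 CPM at day 35 (-1.53 ± 0.32, log2, SE; limma adjusted p = 0.017). Summed with its 2 named pseudogenes, Rpl3 was at 333.8 and 264.7 CPM at day 35 and the fall shrank to -0.93 (limma adjusted p = 0.0421). Rpl34 was at 180.2, 129 and 250.3 CPM in ESC and 178 and 150.1 CPM in iPSC at day 18, and at 44.7 and 86.6 CPM at day 35 (-1.48 ± 0.28, limma adjusted p = 0.011). Summed with its named pseudogenes, Rpl34 was at 79.2 and 86.6 CPM at day 35 and the fall shrank to -1.10 (limma adjusted p = 0.0185). Rpl32 ran from 297 to 564 CPM at day 18 and was at 168 and 115 CPM at day 35 (-1.44 ± 0.31, limma adjusted p = 0.0194). Both day 35 values of these 3 genes, without copies, lay below all day 18 values.
Rpl36a, an X-linked large subunit gene, ran from 124 to 188 CPM and then was at 76.6 and 46.0 CPM (-1.37 ± 0.31, limma adjusted p = 0.0226). Rpl10, also X-linked, is a late assembly protein that joins the subunit in the cytoplasm; it ran from 93.7 to 138 CPM at day 18 and was at 60.5 and 38.0 CPM at day 35 (-1.19 ± 0.30, adjusted p = 0.0311 in limma). Rpl4, which lines the exit tunnel, took the most reads of all members (mean 702 CPM, not per length). Its levels were 652 to 894 CPM at day 18 and 463 and 351 CPM at day 35, without overlap, but its difference of -0.92 ± 0.26 missed the threshold (limma adjusted p = 0.051).

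Among small subunit genes is Rps19, whose human ortholog is the gene most often mutated in Diamond-Blackfan anaemia. Rps19 was at 306, 244 and 519 CPM in ESC and 322 and 245 CPM in iPSC at day 18. It was at 128 and 98.1 CPM at day 35, without overlap (-1.46 ± 0.31, log2, SE; limma adjusted p = 0.0194). Rps7 was at 296, 145 and 503 CPM in ESC and 247 and 199 CPM in iPSC at day 18, and at 49.4 and 134 CPM at day 35 (-1.64 ± 0.45, limma adjusted p = 0.0445), a call that held in 5 of 16 fits with 1 library left out. Rps24 fell from between 479 and 696 CPM to 321 and 227 CPM (-1.14 ± 0.29, limma adjusted p = 0.0346).
Rps6, the substrate of the S6 kinases, ran from 232 to 474 CPM at day 18 and was at 151 and 157 CPM at day 35 (-0.98 ± 0.28, limma adjusted p = 0.0481). The X-linked Rps4x fell by 1.22 and Rps25 by 0.89 on the log2 scale (limma adjusted p = 0.0236 and 0.0439). Rpsa, also known as the laminin receptor precursor, was at 327 to 720 CPM at day 18 and at 243 and 193 CPM at day 35, a difference of -1.08 ± 0.33 that missed the threshold (limma adjusted p = 0.0613). In each of these genes both day 35 libraries lay below every day 18 library, on either side of the threshold.

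Rpl5 and Rpl11 form, with 5S rRNA, the particle that binds Mdm2 when ribosome assembly is disturbed. Rpl5 was at 118, 80.3 and 84.9 CPM in ESC and 138 and 93.2 CPM in iPSC at day 18, and at 51.8 and 84.2 CPM at day 35, with overlap (-0.63 ± 0.21, limma adjusted p = 0.0759). Rpl11 ran from 120.4 to 305 CPM and was at 75.1 and 98.1 CPM at day 35, without overlap (-0.97 ± 0.37, limma adjusted p = 0.12). Of 14 genes listed for this particle and the p53 response, none was called at day 35, with a median of 0.14.
Positive estimates came from 4 members, none called: Rpl10a (0.03), Rps12 (0.69), Rps3a3 (1.12) and Rps3a2 (1.39), all of them genes with copies in the table. Summed with named copies, Rpl10a was at -0.12 and Rps12 at -1.10, and all 80 summed members had a negative estimate. The member nearest to no difference besides Rpl10a was Rpl7l1 (-0.28 ± 0.17), a paralog of Rpl7 that belongs to assembling large subunits. It ran from 53.4 to 77.2 CPM at day 18 and was at 55.2 and 53.8 CPM at day 35.

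**Figure D2:**
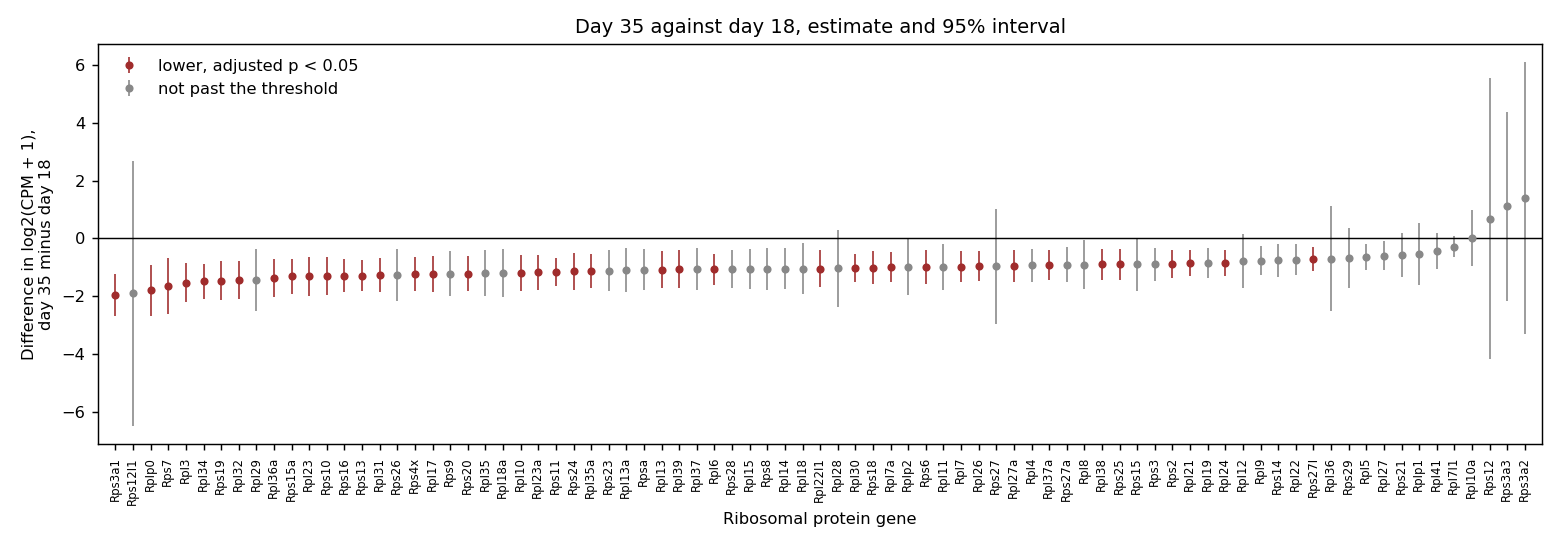
Difference in log2(CPM + 1) between day 35 and day 18 (y axis) for 81 of the 83 genes, ordered by the estimate (x axis); points are limma estimates, bars 95% intervals, red the 40 of them called lower at an adjusted p under 0.05. Most estimates lie near -1.04, and the widest intervals belong to Rps12l1, Rps12, Rps3a2 and Rps3a3.

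In every comparison, fits with libraries left out or within 1 source took each gene without its copies. Their counts are given without the calls over all genes in the same fit, so they do not single out the members. In ESC day 35, Rps3a1, Rpl3 and Rpl34 were at 115, 138 and 44.7 CPM alone. Summed with copies they were at 284, 334 and 79.2 CPM, and the part of copies in the calls below was not tested. The number of members called depended on single libraries, while no called member changed direction in these fits. It fell to 8 without ESC day 35, to 4 without iPSC day 35 (Rpl3, Rpl34, Rps3a1 and Rps7), to 9 without iPSC day 18 replicate 1, to 17 without ESC day 18 replicate 1 and to 25 without ESC day 18 replicate 3. Of the other 7 largest falls, Rpl3 and Rpl34 kept the call in 15 of 16 such fits, Rps19, Rpl32 and Rpl36a in 14, Rplp0 in 13 and Rps7 in 5. Except for Rps7, the fits that lost it left out ESC day 35, iPSC day 35 or iPSC day 18 replicate 1. Without both day 18 libraries of low Nrl, 1 member was called (Rps3a1), while the median difference was -0.98 and 80 members had negative estimates. Without the pair whose Y-linked genes go against the other libraries of their source, 15 were called. Within 1 source, as labelled, no member was called, with medians of -1.14 in ESC and -0.90 in iPSC.

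Against day 21, day 35 was lower for 40 members and higher for none, and 1.45% of all tested genes were called lower. The median difference was -1.21, against 0.03 over all genes, and both day 35 libraries lay below every day 21 library for 69 members (83.1%, against 12.2% of all tested genes). Rps7 fell most, from 443, 299.7 and 469.9 CPM in ESC and 428 CPM in iPSC to 49.4 and 134 CPM (-2.33 ± 0.47, log2, SE; limma adjusted p = 0.023). Next were Rps3a1 (-2.30, limma adjusted p = 0.0075), Rplp0 (-1.94, 0.0302), Rpl34 (-1.79, 0.0103) and Rpl32 (-1.65, 0.0217). Rps19 (-1.65, 0.022) and Rpl3 (-1.65, 0.0226) followed. Summed with copies, Rps3a1 differed by -1.55 (limma adjusted p = 0.0287), and Rpl3 by -0.93 and was no longer called (0.0809). Rpl34 so summed differed by -1.32 (limma adjusted p = 0.0176).
Of the members called here, 32 were also called against day 18, but both comparisons use the same day 35 libraries. The count was 0 without ESC day 35 (smallest adjusted p = 0.0592), 3 without iPSC day 21 (Rpl30, Rpl34 and Rps3a1), 13 without ESC day 21 replicate 2 and 15 without iPSC day 35. In ESC libraries alone 1 member was called (Rpl34), in iPSC libraries alone none, with medians of -1.25 and -1.32.

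The remaining days were compared with day 18. Of all 15202 genes tested, an unadjusted limma p under 0.05 was reached by 2854 at day 21, 3707 at day 25 and 3342 at day 28. The shares of genes called refer to the adjusted p. Day 21 had no member called (smallest adjusted p = 0.217; 2 members at an unadjusted p under 0.05; 0% of all genes called), with a median difference of 0.20 and 14 negative estimates; edgeR and DESeq2 called none either. Day 25 had none called (smallest adjusted p = 0.0861, 31 at an unadjusted p under 0.05, 0.0395% of all genes called), with a median of -0.48 and 79 negative estimates. At day 25 edgeR called none and DESeq2 called 7 members, all lower, while it called 4.41% of all genes lower. The lowest p at day 25 was that of Rpl22l1, a paralog of Rpl22: it was at 63.8, 55.6 and 61.8 CPM in ESC and 79.0 and 52.3 CPM in iPSC at day 18, and at 22.1 CPM in ESC and 43.6 and 22.8 CPM in iPSC at day 25 (-1.09 ± 0.26, limma adjusted p = 0.0861). The groups did not overlap. Rpl22l1 was called without iPSC day 18 replicate 2 (0.0383, with Rpl5 at 0.0452) and without iPSC day 25 replicate 1 (0.0338).
Day 28 also had no member called (smallest adjusted p = 0.0795, 7 at an unadjusted p under 0.05, 0.579% of all genes called), with a median of -0.11. Its 2 libraries differed, as in the sums. Rps3a1 was lowest in p, at 156 CPM in ESC and 302 CPM in iPSC (-1.36 ± 0.34), and was called without ESC day 18 replicate 2 (0.0428) and without iPSC day 18 replicate 2 (0.0374). Summed with its copies it was at 548 CPM in ESC, within the range of day 18 (449 to 702 CPM), and at 302 CPM in iPSC (-0.51, limma adjusted p = 0.356). No member so summed had an adjusted p under 0.114 at day 28. On single genes edgeR called none at day 28 and DESeq2 called 2 members lower, Rps3a1 and Rpl5, and 3.1% of all genes lower.

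A single slope with day, which uses all 16 libraries, gave 44 members falling and none rising, with 5.29% of all genes called lower. The median slope was -0.41 per 7 days on the log2 scale, against 0.01 over all genes. Slopes were steepest for Rps3a1 (-0.92 ± 0.15 per 7 days, limma adjusted p = 0.00199), Rplp0 (-0.77, 0.00618), Rps7 (-0.69, 0.0349), Rpl3 (-0.69, 0.00372) and Rpl34 (-0.66, 0.00372). Rpl29 (-0.60, 0.049), Rps19 (-0.59, 0.00989) and Rpl32 (-0.58, 0.0107) followed. Summed with copies, the slope was -0.59 for Rps3a1 (limma adjusted p = 0.0112), less steep than Rplp0 (-0.77) and Rps7 (-0.69), and -0.37 for Rpl3 (0.0364). For Rps3a1, Rplp0, Rpl3 and Rpl34 the call held whichever library was left out, whereas Rpl29 kept it in 3 of 16 such fits.
The single slope and the day 35 comparison shared 38 called members, again with the same libraries. Rpl5, not called at day 35, was called here (-0.31 ± 0.08 per 7 days, limma adjusted p = 0.0245), as were Rpl4 (0.0313) and Rpsa (0.0491). Without iPSC day 35, 6 members were called (Rpl3, Rpl34, Rpl5, Rplp0, Rps13 and Rps3a1) and without iPSC day 18 replicate 1, 26. Without ESC day 35, 29 were called, of which 2 rose: Rps12 (2.43, limma adjusted p = 0.0407) and Rpl10a (0.49, 0.0397). Over all 16 libraries and summed with copies, Rps12 instead fell (-0.43, limma adjusted p = 0.0469) and Rpl10a had a slope of 0.01 (0.969). Without the low-Nrl pair 23 were called. In ESC alone 5 were called (Rpl29, Rpl3, Rpl34, Rplp0 and Rps3a1) and in iPSC alone 16, with median slopes of -0.40 in both. These calls took each gene without its copies, and the calls over all genes in the same fits are not given here. In ESC day 28, Rps3a1, Rpl3 and Rpl34 were at 156, 217 and 86.7 CPM alone and at 548, 639 and 194 CPM summed with copies.

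**Figure D3:**
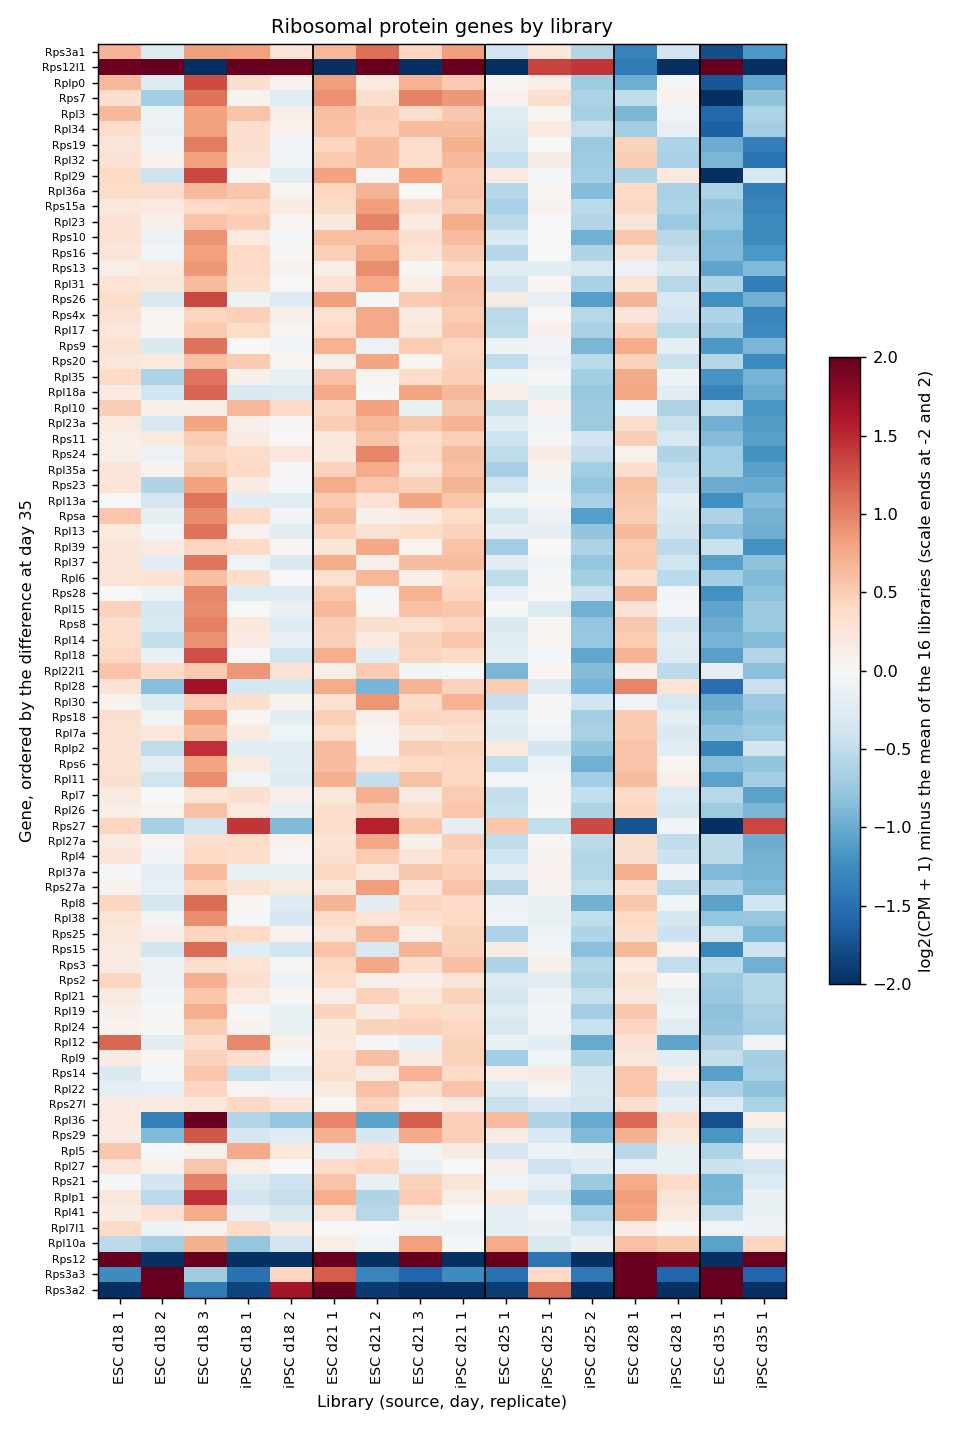
Log2(CPM + 1) of 81 of the 83 genes (rows, ordered by the difference at day 35) in each of 16 libraries (columns, ordered by day), as difference from the mean of the gene over the libraries; colours end at -2 and 2. Both day 35 columns are blue for most genes, ESC day 18 replicate 3 is the highest library for 44 of the 83 genes, and Rps12, Rps12l1, Rps3a2 and Rps3a3 switch between libraries.

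Libraries labelled ESC and iPSC were compared next. With day as a factor, no member was called (limma; smallest adjusted p = 0.753, 1 member at an unadjusted p under 0.05; edgeR and DESeq2 also called none), and 0% of all genes were called. The median difference, iPSC minus ESC, was -0.18 (-0.14 without the pair whose Y-linked genes go against their source), and the 95% intervals reached a median of 0.41 to either side of the estimate. The member lowest in p was Rpl5 (0.32 ± 0.13). A test of the slope with day between the sources called no member either (smallest adjusted p = 0.508; 4 at an unadjusted p under 0.05; 0% of all genes; edgeR and DESeq2 also called none). Of all 15202 genes tested, 840 had an unadjusted limma p under 0.05 between the sources and 1233 for the slope by source. A miss of the threshold does not show that the sources are alike.

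Near-identical copies make some members uncertain. Rps12 and Rps12l1, a processed pseudogene on chromosome 7, took turns: Rps12 was at 0 CPM and Rps12l1 at 70.6 CPM in ESC day 18 replicate 2, while Rps12 was at 77.1 CPM and Rps12l1 at 0 CPM in ESC day 18 replicate 3. At day 35 ESC had Rps12 at 0 and Rps12l1 at 57.9 CPM, and iPSC had 47.3 and 0.31 CPM. With all 16 libraries, neither gene alone was called in any comparison. Summed with all its named copies, Rps12 differed by -1.10 ± 0.32 at day 35 (limma adjusted p = 0.0515).
Rps3a1 shared its signal with the processed pseudogenes Rps3a2 and Rps3a3 in some libraries. In ESC day 28 the 3 genes were at 156, 288 and 104 CPM, and in ESC day 35 at 115, 138 and 31.9 CPM, whereas in iPSC day 35 they were at 177, 0.11 and 0 CPM. Summed over the 3, the difference at day 35 was -1.36 ± 0.32 (limma adjusted p = 0.0255), a smaller fall than that of Rps3a1 alone. Named pseudogenes were in the table for 58 members, 270 in all. They held 88.6% of the summed CPM of both for Rpl27, 75.4% for Rps12 and 71.2% for Rpl10. With members summed with their named copies, an alternative chosen after seeing the data, 44 of 80 genes were called lower at day 35, among them all 41 called alone. Against day 21 it kept 39 of 40 calls, and for the slope 43 of 44. The calls over all genes with copies summed are not given here.

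**Figure D4:**
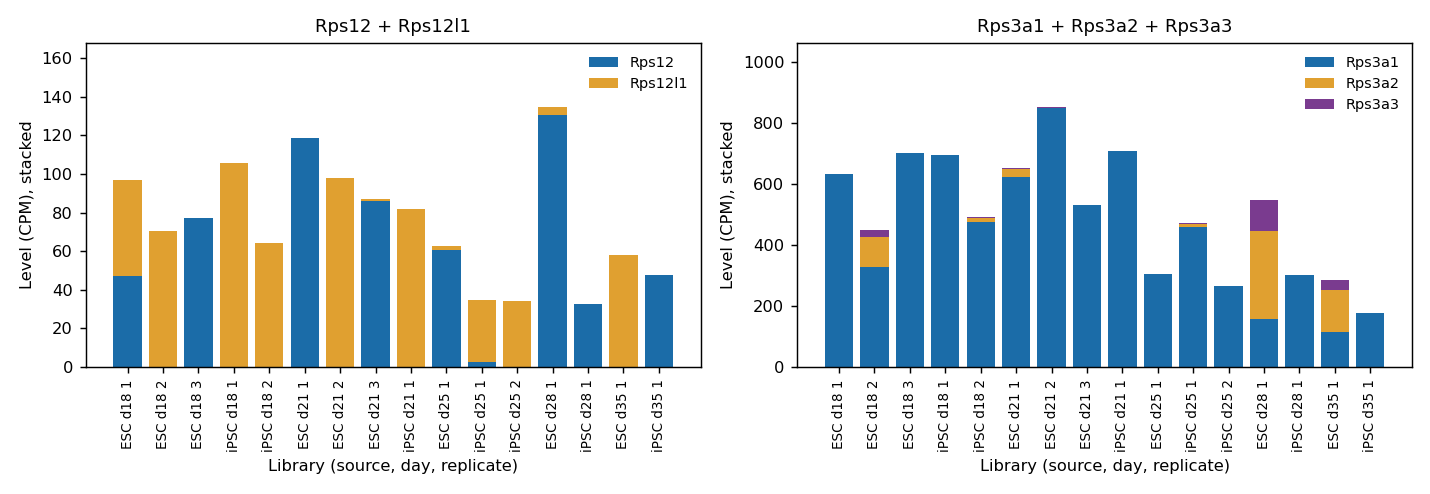
Stacked level in CPM (y axis, from 0) of Rps12 and its copy Rps12l1 (left) and of Rps3a1 with Rps3a2 and Rps3a3 (right) in each library (x axis, ordered by day). In most libraries either Rps12 or Rps12l1 carries nearly all the signal of these 2 genes. Other named pseudogenes of Rps12 are not drawn. Rps3a2 exceeds Rps3a1 in ESC day 28 (288 against 156 CPM) and ESC day 35 (138 against 115 CPM).

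Paralogs can replace their parents in some tissues, so ratios of CPM + 1 within a library were compared between days 28 and 35 (n = 4) and day 18 (n = 5). An exact two-sided permutation test (smallest p possible 0.0079) was run on 6 pairs. None passed after adjustment (smallest adjusted p = 0.0952). Rpl22l1 over Rpl22 was -1.62 ± 0.30 at day 18 and -2.20 ± 0.37 later (log2 ratio, SD; exact p = 0.0476). Rpl36al over Rpl36a was -1.37 ± 0.09 and -0.89 ± 0.40 (exact p = 0.0317).
Rpl3l, the muscle paralog of Rpl3, was at 0.07 to 2.1 CPM at day 18 and at 0.59 to 4.1 CPM later, and its ratio to Rpl3 was -8.39 ± 0.87 and -6.03 ± 0.42 (exact p = 0.0159). At such low levels the ratio depends on the pseudocount: with 0.1 in place of 1 it was -9.86 ± 1.66 and -6.56 ± 0.79, with the same exact p. The ratio of Rpl7l1 to Rpl7 was -3.01 ± 0.16 and -2.65 ± 0.49 (exact p = 0.1746), that of Rps27l to Rps27 0.87 ± 0.88 and 1.32 ± 2.19 (exact p = 0.6905), and that of Rps4l to Rps4x -7.42 ± 0.64 and -7.42 ± 0.58 (exact p = 1.0). The first 3 pairs had the lowest p. With parents taken without their copies, only Rpl3l over Rpl3 did not overlap between the groups. In the later ESC libraries, named pseudogenes carried most of the summed Rpl3 signal. With the summed Rpl3 the groups overlapped. ESC day 35 had Rpl3l at 0.59 CPM and the summed Rpl3 at 333.8 CPM. In iPSC day 18 replicate 2 they were at 2.09 and 464.8 CPM, a higher ratio. No test was run on the summed ratio.

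Levels between genes can be compared per length, in TPM (transcript abundance scaled for length and library), for the 49 members with all transcripts in the deposited table. Rpl23a (mean 2080 TPM) and Rpl26 (2074 TPM) were among the highest, and Rpl12 (30.5 TPM), Rpl27 (75.0 TPM) and Rpl5 (142 TPM) lowest. Most of these proteins are built into the ribosome in equal numbers. For Rpl27 the named pseudogenes held most of the summed CPM, as given above, and their part in its low level was not tested.
Shares of transcripts within a gene were compared for 62 transcripts of 26 members (days 28 and 35 against day 18). None passed after adjustment (smallest adjusted p = 0.6889), and 3 had an exact p under 0.05. Rps19-205, annotated for nonsense-mediated decay, was 15.1% ± 4.1 of Rps19 at day 18 (SD, n = 5) and 23.7% ± 2.8 later (SD, n = 4; exact permutation p = 0.0238). Rpl5-201, a coding transcript, was 51.6% ± 6.9 and 40.0% ± 4.1 (exact permutation p = 0.0317), and Rpl30-205, a processed transcript, 31.5% ± 2.7 and 37.9% ± 6.5 (exact permutation p = 0.0476).
Length and GC content were taken from the longest annotated coding or pseudogene transcript of each member, which need not be the one expressed. Lengths ran from 383 to 5179 bases and GC content from 40.6% to 62.4%. Across the 83 members, which are not independent replicates, Spearman's rho with the day 35 difference was -0.23 for length and 0.14 for GC content.

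Genes of ribosomal proteins that the naming rule misses gave values that the rule did not use. Gnb2l1, which encodes Rack1 on the head of the small subunit, was at 586, 444 and 837 CPM in ESC and 579 and 407 CPM in iPSC at day 18, and at 230.3 and 207 CPM at day 35, without overlap (-1.31 ± 0.31, log2, SE; limma adjusted p = 0.0261). Rpl36al fell by 0.72 (limma adjusted p = 0.0422). Fau, a ubiquitin-like fusion of a small subunit protein, was at 36.8 to 78.2 CPM and then at 21.4 and 29.3 CPM (-0.84 ± 0.25, limma adjusted p = 0.0589). All 4 genes of this list had negative estimates, with a median of -0.78, and 2 passed the test.

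Other lists of the translation machinery are read beside the 2.99% of all genes called lower and 4.54% called higher at day 35. Of 18 translation factors and partners whose mRNAs carry TOP motifs, 4 fell (22.2%) and none rose, with a median of -0.74: Naca (-1.09, limma adjusted p = 0.0166), Eif3h (-0.81, 0.0225), Pabpc1, the poly(A) binding protein (-1.10, 0.0395), and Tpt1 (-1.18, 0.0436). Of 29 other initiation factors 1 was called lower (3.45%, near the share of all genes), Eif3m (-0.68, 0.0415), with a median of -0.17. Of 39 ribosome biogenesis factors 3 fell (7.69%), Npm1 (-1.24, 0.0364), Fbl, the methyltransferase of box C/D particles (-1.09, 0.0373), and Nop10 (-0.72, 0.0488), with a median of -0.25. None of 20 genes of RNA polymerase I, which transcribes rRNA, was called (median -0.12).
Of 79 tested mitochondrial ribosomal protein genes, a list added by symbol after the files were seen, none was called, with a median of 0.01. Among 24 regulators of TOP mRNAs and ribosomal protein genes, Mycn (-1.53, 0.0198) and Mycl (-1.60, 0.0414) fell, and Rps6ka2, a kinase of the RSK family (1.35, 0.0213), and Max, the partner of Myc proteins (1.28, 0.0259), rose (8.33% in each direction). None of 13 listed snoRNA host genes was in the table. Differences between these lists were not tested.

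**Figure D5:**
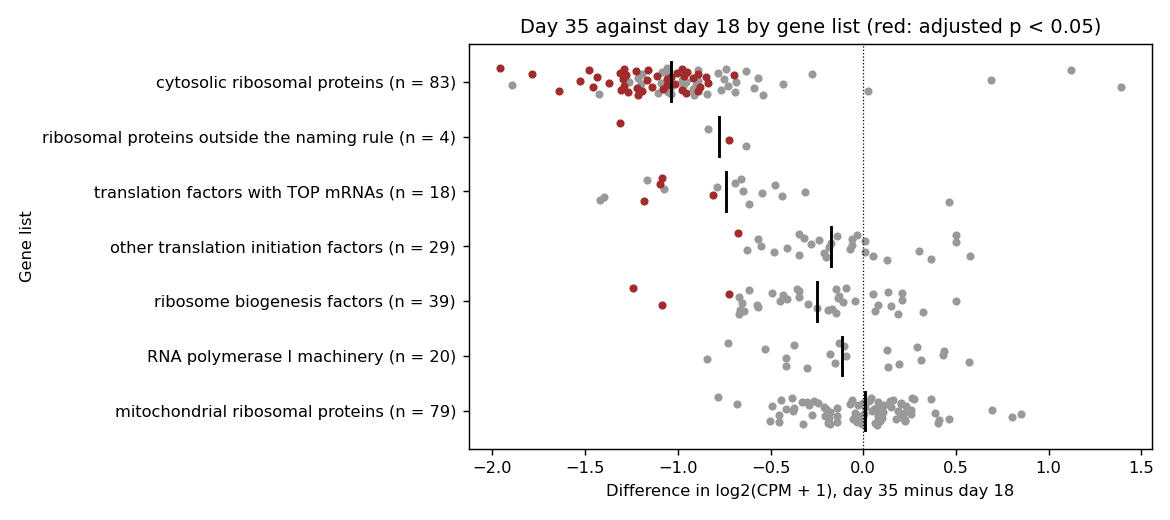
Difference in log2(CPM + 1) between day 35 and day 18 (x axis) for each gene of 7 lists (rows, vertical jitter without meaning); red points passed an adjusted p of 0.05 in limma and black bars are medians. The medians are -1.04 for cytosolic ribosomal proteins and 0.01 for mitochondrial ribosomal proteins.

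Cell type markers moved with day as well, and their part in the fall of the members was not tested. Of 8 proliferation genes, 6 fell at day 35; their sum was 231 to 1375 CPM at day 18 and 37.2 to 136 CPM at day 35. Of 8 retinal progenitor genes 2 fell, with sums of 279 to 2431 CPM and 31.2 to 489 CPM. Of 8 rod genes 3 rose, with sums of 242 to 4246 CPM and 4328 to 11753 CPM, among them Gnat1, rod transducin (5.09, limma adjusted p = 0.000533). Between day 18 and day 35, day 18 thus had the higher median sums of progenitor and proliferation genes and the lower of rod genes. Its ribosomal protein sums were also higher than those of day 35.
Day 21 departed from this order: its proliferation genes summed to 63.6 to 450 CPM and its rod genes to 2130 to 10103 CPM. Its ribosomal protein sums lay between 24420 and 26250 CPM, with a mean above that of day 18. Müller glia genes summed to 154 to 220.3 CPM at day 18 and 64.8 to 816 CPM at day 35 (1 of 4 rose, Aqp4), and bipolar genes to 20.5 to 122 CPM and 80.2 to 272 CPM (2 of 3 rose, Prkca and Grm6). Amacrine (25.5 to 32.9 and 10.2 to 67.9 CPM), cone (9.1 to 102 and 12.4 to 13.2 CPM), pigment epithelium (7.3 to 27.6 and 6.1 to 63.0 CPM) and pluripotency genes (0.9 to 2.3 and 1.1 to 2.5 CPM) had none called. Of the ganglion and horizontal cell genes 1 of 4 fell (Onecut1), with sums of 35.8 to 114 and 8.2 to 18.1 CPM. The 2 day 35 libraries differed. Müller glia, bipolar, progenitor and pigment epithelium genes summed to 816, 272.5, 489 and 63.0 CPM in ESC. In iPSC they summed to 64.8, 80.2, 31.2 and 6.1 CPM. Rod genes summed to 4328 CPM in ESC and 11753 CPM in iPSC. What this difference adds to the day 35 comparisons was not tested. No listed marker was at 0 in every library.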

How the data were processed

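The authors used Trimmomatic 0.36 for trimming and kallisto 0.42.5 for quantification on Ensembl cDNA of GRCm38.p4, and values were summed per gene with tximport and scaled to CPM with edgeR, per the labels' processing notes and the series design. The authors' deposited gene values, treated here as a score, equal the square of log2(CPM + 1) minus 1 (a constant ratio to TPM in 8488 of 8688 genes, tolerance 0.0001), and CPM was recovered from them. Deposited estimated counts and TPM per transcript stop at 65535 transcripts. CPM of the 16 libraries sums to between 642418 and 885155.

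Tests used limma 3.58.1 with trend on log2(CPM + 1), pseudocount 1, for 15202 genes with at least 1 CPM in at least 2 libraries, with Benjamini-Hochberg adjustment over all of them; the scale understates changes of low genes. Days with 1 library per source borrow the spread of the others. edgeR 4.0.16 and DESeq2 1.42.0 ran on counts rebuilt from CPM and rebuilt totals, rounded. The fits were tested on simulated data. Members and lists were chosen with earlier results of these data known. Named genes are the 8 largest falls among called members in each comparison, the 10 highest members, those nearest the threshold, and fixed proteins of known role with the paralog pairs. Others (Rpl10a, Rps12, Rps13, Rpl30, Rpl21, Rpl24, Rpl23a, Rpl26, Rpl12, Rps10, Rpl7a, Rpl27a) were named after their values were seen. A few genes that this rule names are not reported here by name or drawn by gene, and counts over the members include them.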

Additional observations from a re-analysis of the deposited data

Results flagged for a closer look

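Within-day outliers were sought for 26 named members and the sum over the 83 members, in 54 groups of 4 or 5 libraries. If the groups were independent, chance would flag about 1 in 20. They share libraries and the members move together, so this rate does not gauge the number of flags. Flagged were 4, all of them in ESC day 18 replicate 3, whose level lay far above the other 4 day 18 libraries. Rplp1 was at 316.7 CPM there (others 78.4 to 132.6 CPM) and Rplp2 at 306.9 CPM (others 77.7 to 136.2 CPM). Rps19 was at 519.2 CPM (others 243.8 to 322.0 CPM) and Rpl13a at 969.5 CPM (others 365.1 to 463.7 CPM). This library also had the highest sum over the 83 members, 31402 CPM, which was not flagged. Without it, 25 members were called lower at day 35 against day 18, with a median difference of -0.88. The calls over all genes in that fit are not given here.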

How the results depend on the processing

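No member called in a comparison changed direction under any alternative run. Members called at day 35 against day 18 (41) numbered 25 with no filter, where 22860 genes were tested, 29 with edgeR, 64 with DESeq2, 1 without the low-Nrl pair, 15 without the pair with Y-linked genes against their source, and 0 within ESC or iPSC libraries; with 1 library left out they numbered 4 to 58. Rescaling CPM to the sum of genes other than the members gave 52 and moved the median of all genes from 0.05 to -0.11 and that of the members from -1.04 to -1.21; of all calls, 454 of 1144 were lower as reported and 661 of 1272 then. Day 35 against day 21 (40) gave 26 with no filter, 26 with edgeR, 21 without the low-Nrl pair, 19 without the Y-linked pair, 1 in ESC and 0 in iPSC, and 0 to 52 with 1 library left out. The slope (44) gave 23 without the low-Nrl pair, 5 in ESC, 16 in iPSC, and 6 to 58 with 1 library left out; of all slopes called, 804 of 1840 were negative as reported and 1155 of 2033 with the rescaling above. Day 28 (0) gave 2 and day 25 (0) gave 7 with DESeq2; with 1 library left out they gave 0 to 1 and 0 to 2. Paralog ratios, transcript shares, day 21, source and slope by source gave 0 throughout. Except for the rescaling and for DESeq2 at days 25 and 28, these counts are given without the calls over all genes in the same fit. They do not tell a change in the members from a change in all calls. Where the cause of a change is not in the fewer libraries or more genes tested, it was not tested.

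With the replicate number as a block, 65 members were called at day 35, 6 at day 28 and 9 at day 25. The calls over all genes in this fit are not given here, so the counts do not single out the members. Same-numbered ESC libraries of days 18 and 21 correlated in their deviations at 0.314, 0.059 and 0.249, so the numbers were not taken as pairs, and not every library correlated best with its own number. A left-out library can leave 1 library at a day, assumed to vary like the rest. Days 28 and 35 have 2 libraries each, 1 per source, which limits every comparison with them. Depth limits Rpl3l in ESC day 18 replicate 1, at 0.074 CPM where 1 count is worth 0.062 CPM.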
